A study of Mus musculus with 2 samples.

Results

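CtBP2 occupancy was measured at 5 genes that are counted among those disallowed in pancreatic beta cells: Ldha, Slc16a1, Hk1, Rest and Pdgfra. Each gene was represented by a fixed stretch of the mouse genome, build mm9, and these 5 windows span 440 kb. Divided into steps of 200 bp they hold 2200 of the 12801850 steps analysed in the genome, or 0.0172%. The windows were Ldha chr7:54080001-54130000, Slc16a1 chr3:104420001-104480000, Hk1 chr10:61710001-61870000, Rest chr5:77670001-77740000 and Pdgfra chr5:75520001-75620000, with positions counted from 1. No gene annotation of mm9 was used, so where each gene starts and ends inside its window was not determined, and a place of ChIP signal is named by its position and its window.

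The cells were MIN6, a mouse insulinoma line used as a model of the beta cell, grown in regular culture. There was 1 chromatin immunoprecipitation (ChIP) library, precipitated with an antibody to CtBP2, and 1 input library of sheared chromatin that was not precipitated. The ChIP library held 34890624 aligned reads and the input library 20896067, and 8474671 and 12471942 remained on the nuclear chromosomes when 1 read per chromosome, 5 prime end and strand was kept. With 1 library of each kind there was no replicate, so every test compares the reads of these libraries, and every interval is a 95% interval for counting error only. No library precipitated with control IgG was analysed here, and no RNA was measured, so whether the 5 genes are silent in these cells was not examined.

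Disallowed genes are active in most tissues and kept low in mature beta cells, where their products would disturb the coupling of glucose to insulin release. Lactate dehydrogenase A (Ldha) turns pyruvate into lactate, and Slc16a1 encodes MCT1, which carries lactate and pyruvate across the cell membrane. Hk1 is a hexokinase of high glucose affinity, while beta cells sense glucose through glucokinase. Rest is a repressor of neuronal genes that beta cells, like neurons, keep off, and Pdgfra is a receptor for platelet-derived growth factor. CtBP2 is a corepressor whose activity follows cellular NAD(H), and it is brought to DNA by the factors it partners with.

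The promoters recorded for these genes differ widely in CpG dinucleotides, and they are shown so that this can be read beside the ChIP counts. The sequences come from RefSeq in build GRCm38.p6, which is not the build of the reads, so they could not be laid over the ChIP positions. An entry runs from 250 bases before to 50 bases after a gene start, and 4 of the 5 genes matched, with 6 starts. No entry matched Rest, so its promoter is missing here. The second Ldha start is counted below but its sequence is not printed. CpG dinucleotides are in capitals, and each sequence is written 5 prime to 3 prime along the gene. The coordinates in the lines that follow are GRCm38.p6 and cannot be compared with the mm9 positions.
Slc16a1 (chr3:104638414-104638713, plus strand): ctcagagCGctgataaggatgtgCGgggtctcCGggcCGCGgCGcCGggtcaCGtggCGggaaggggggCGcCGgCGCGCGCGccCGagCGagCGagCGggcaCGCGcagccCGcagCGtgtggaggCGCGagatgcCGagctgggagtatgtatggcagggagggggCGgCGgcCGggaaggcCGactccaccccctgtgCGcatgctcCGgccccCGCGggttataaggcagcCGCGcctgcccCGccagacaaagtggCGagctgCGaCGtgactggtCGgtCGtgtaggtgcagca
Ldha, first start (chr7:46845554-46845853, plus strand): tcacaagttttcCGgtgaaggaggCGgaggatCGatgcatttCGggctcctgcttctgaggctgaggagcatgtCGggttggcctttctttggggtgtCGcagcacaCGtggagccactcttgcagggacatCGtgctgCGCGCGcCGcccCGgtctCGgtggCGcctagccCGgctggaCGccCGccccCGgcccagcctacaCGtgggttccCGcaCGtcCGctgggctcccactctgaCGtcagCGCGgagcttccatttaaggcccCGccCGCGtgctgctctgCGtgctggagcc
Pdgfra (chr5:75152001-75152300, plus strand): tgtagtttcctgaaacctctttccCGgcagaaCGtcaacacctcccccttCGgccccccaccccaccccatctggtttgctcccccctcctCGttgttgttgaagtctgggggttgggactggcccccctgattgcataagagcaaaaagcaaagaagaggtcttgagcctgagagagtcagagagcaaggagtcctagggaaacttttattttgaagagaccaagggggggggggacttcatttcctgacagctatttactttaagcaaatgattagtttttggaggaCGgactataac
Hk1, first start (chr10:62379859-62380158, minus strand): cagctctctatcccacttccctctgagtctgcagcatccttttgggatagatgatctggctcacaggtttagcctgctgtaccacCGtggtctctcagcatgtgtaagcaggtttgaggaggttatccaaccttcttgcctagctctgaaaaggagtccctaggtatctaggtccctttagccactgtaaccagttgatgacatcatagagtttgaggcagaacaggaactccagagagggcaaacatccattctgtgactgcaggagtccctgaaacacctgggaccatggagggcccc
Hk1, second start (chr10:62340372-62340671, minus strand): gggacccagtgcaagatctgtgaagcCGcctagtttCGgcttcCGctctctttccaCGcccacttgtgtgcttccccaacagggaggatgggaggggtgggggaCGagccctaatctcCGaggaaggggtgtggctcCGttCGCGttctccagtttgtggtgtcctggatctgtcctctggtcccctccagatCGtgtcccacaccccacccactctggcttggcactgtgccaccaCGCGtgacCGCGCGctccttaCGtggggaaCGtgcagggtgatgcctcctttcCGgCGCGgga

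The Slc16a1 promoter held 42 CpG in its 300 bases, a number reached by 3.03% of all 32851 promoter entries. The first Ldha start held 30 CpG (reached by 11.7% of entries) and the second 13 (37.9%). Hk1 had 1 CpG at its first start (94.6%) and 20 at its second (26.5%), and Pdgfra had 5 (62.0%), against a median of 7 over all entries. The GC content was 73.7% for Slc16a1, 67.3% and 56.7% for the Ldha starts, 51.3% and 63.3% for the Hk1 starts and 51.0% for Pdgfra, against a median of 52.7%. The letters CACGTG, an E-box that reads the same on either strand, were found 2 times at the first Ldha start and 1 time at Slc16a1, and not in the other 4 entries, and 7.15% of all entries hold them. The letters CACCTG, the E-box core bound by the CtBP partners of the ZEB family, were found on either strand 1 time each at the second Ldha start and the first Hk1 start, against 20.2% of all entries. These motifs do not overlap each other, and a match is a match of letters only.

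ChIP reads in the Ldha, Slc16a1, Rest and Pdgfra windows were concentrated in a few short stretches that differed widely in depth, whereas the Hk1 window had calls at the rate of the genome, none of which held when input in the same step was used. A step was called where distinct ChIP reads exceeded the expected count at least 3-fold with an adjusted p of at most 0.01 (exact Poisson test per step, Benjamini-Hochberg over the genome). The count to be expected came from input around the step, scaled to the ChIP total and averaged over 1, 5 or 10 kb, or from the genome mean, whichever was highest. In the 5 windows 27 of 1150 steps with reads were called (2.35%), against 1.00% of the 6708916 such steps of the genome. Many called steps lie side by side and are not independent, so the pooled share is no result about the 5 genes as a set. The Rest window held 12 called steps (5.63% of its steps with reads), 4 of them in the 1.6 kb at its upper edge. Slc16a1 held 5 (3.07%), Pdgfra 4 (1.76%), Ldha 2 (1.42%) and Hk1 4 (0.985%). The share in the Hk1 window was thus at the level of the genome. When the input of the step itself was added to the expected count, which calls 0.806% of steps in the genome, 18 steps of the windows were called and none of them in Hk1. When steps with input of 10 or more times its genome mean were left out, which calls 0.293%, 7 steps were called, 4 in Rest, 2 in Pdgfra, 1 in Hk1 and 0 in Ldha and Slc16a1. Called steps with at most 1 uncalled step between them were joined into 13 regions, 4 in the Hk1 window, 4 in Rest, 3 in Pdgfra and 1 each in Ldha and Slc16a1. Holding a called step is common: 34.7% of all 50 kb tiles of the genome (the length of the Ldha window) held at least 1, 39.3% of 60 kb tiles (Slc16a1), 67.8% of 160 kb tiles (Hk1), 43.5% of 70 kb tiles (Rest) and 53.6% of 100 kb tiles (Pdgfra). At least as many called steps as in the window were found in 40.4% of such tiles for Hk1, 27.4% for Pdgfra and 26.5% for Ldha. For Slc16a1 it was 12.5% and for Rest 1.95%. The counts in the Ldha and Pdgfra windows were thus common in the genome too.

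**Figure D1:**
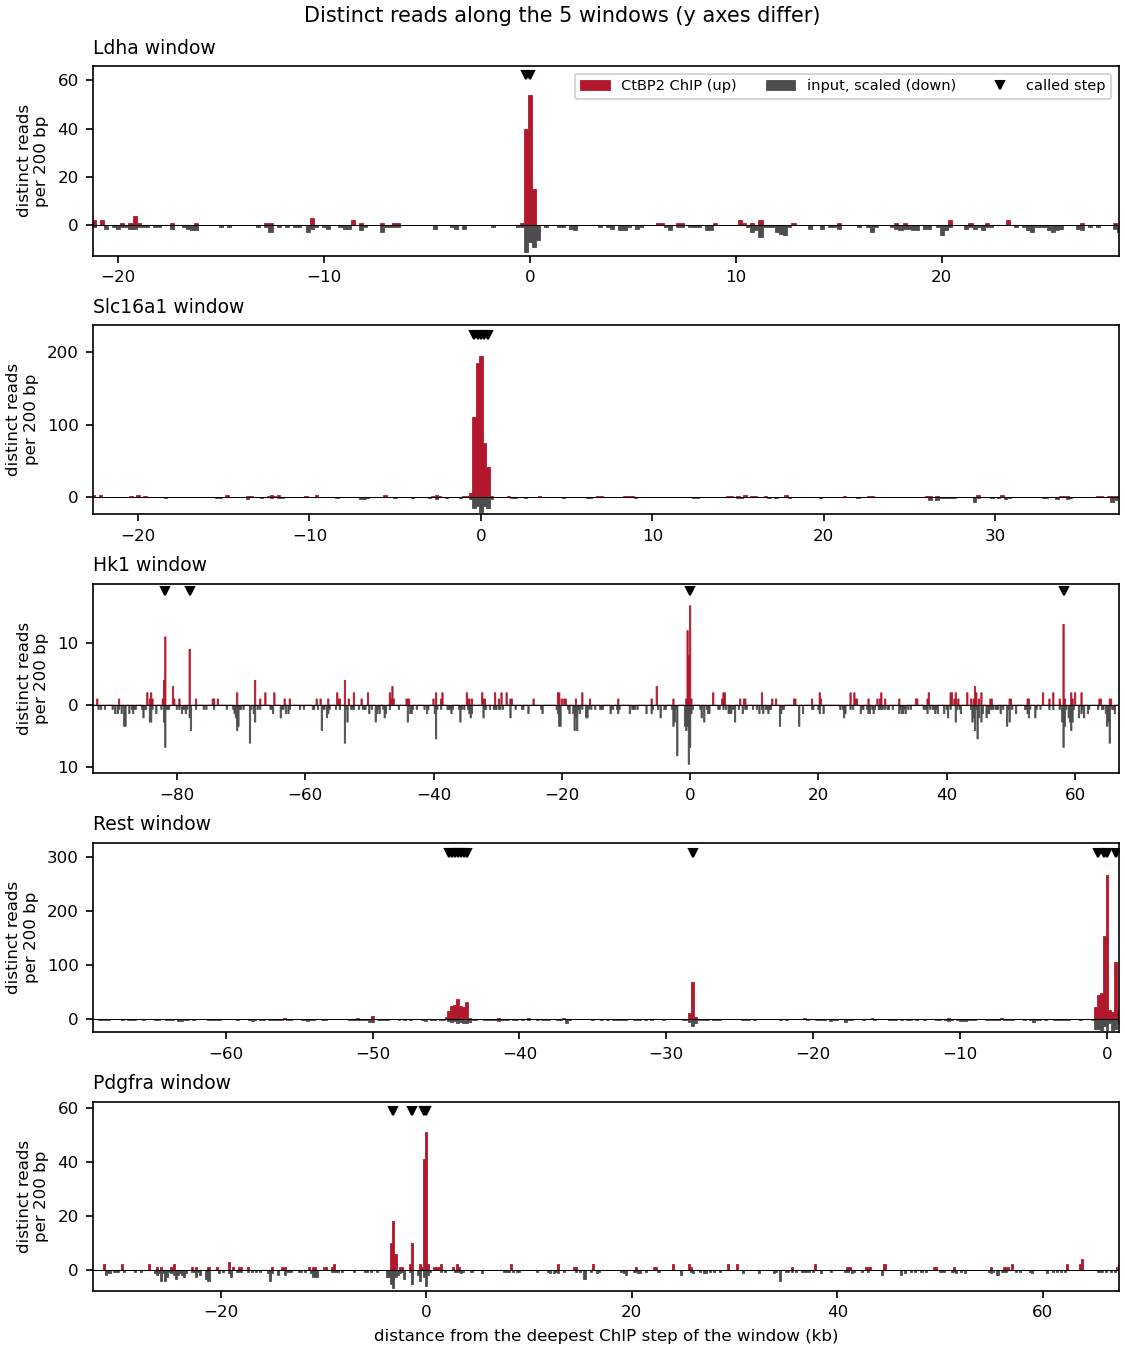
Distinct CtBP2 ChIP reads (red, upward) and input reads scaled to the ChIP total (grey, downward) per 200 bp step along each window, against the distance in kb from its deepest ChIP step; triangles mark called steps and the y axes differ between windows. ChIP reads pile up in 1 place in the Ldha and Slc16a1 windows, in 3 places in the Rest window, with 2 regions at its upper edge, and near 1 place in the Pdgfra window, whereas no step of the Hk1 window exceeds 16 reads.

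Counted over whole windows, with input scaled by library totals, ChIP was ahead of input in the Slc16a1 and Rest windows only, while with scaling on background bins all 5 ratios lay above 1. The Slc16a1 window held 678 ChIP and 363 input reads, and with input multiplied by 0.679, the ratio of the totals, its ChIP to input ratio was 2.75 (interval 2.42 to 3.13). The Rest window held 1019 ChIP and 636 input reads, a ratio of 2.36 (2.13 to 2.61), which became 1.14 (0.987 to 1.31) without the 1.6 kb at its upper edge. The Pdgfra window, with 237 and 369 reads, had a ratio of 0.945 (0.800 to 1.116), which includes 1, the value of the whole genome under this scaling. The Ldha window, with 157 and 290 reads, had 0.797 (0.652 to 0.971), and the Hk1 window, with 257 and 704 reads, had 0.537 (0.464 to 0.621). Of the 10 pairs of windows, 8 differed beyond their intervals, and the neighbours in this order that did not were Slc16a1 and Rest (2.75 against 2.36) and Pdgfra and Ldha (0.945 against 0.797).

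Called steps, 1.00% of those tested in the genome, took 60.7% of ChIP reads and 8.63% of input reads. The ratio over the genome outside called steps and their neighbours was 0.401. Tiles of the same length had median ratios from 0.464 (50 kb, as Ldha) to 0.539 (160 kb, as Hk1). A ratio at least as high as that of the window was found in 6.25% of tiles for Slc16a1, 8.87% for Rest, 21.9% for Ldha, 25.5% for Pdgfra and 50.2% for Hk1. The Hk1 window therefore sat at the middle of the genome, and the Slc16a1 and Rest windows near its top. The rank of Rest includes the 1.6 kb at its upper edge, and no rank was computed without it.

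Outside called steps and the step on each side of them, the windows held little ChIP signal. Leaving out steps that were called for high ChIP lowers the ratio by construction, so it was set beside the genome treated alike. The ratio there was 0.450 (0.381 to 0.529) in Hk1, 0.439 (0.346 to 0.553) in Pdgfra and 0.411 (0.309 to 0.541) in Slc16a1, all with intervals that include the 0.401 of the genome. In Ldha it was 0.277 (0.198 to 0.379) and in Rest 0.266 (0.199 to 0.351), below the genome value. Called steps held 89.2% of ChIP reads and 31.4% of input reads in the Slc16a1 window, 80.3% and 27.7% in Rest, 59.9% and 8.97% in Ldha, 50.6% and 8.40% in Pdgfra and 19.1% and 4.69% in Hk1.

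**Figure D2:**
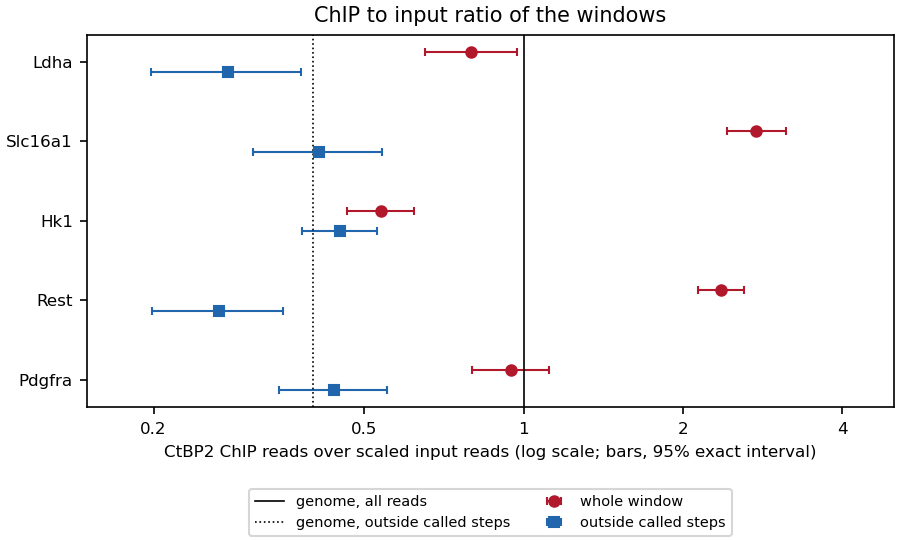
CtBP2 ChIP reads over scaled input reads, on a log scale, for each whole window (circles) and for its steps outside called ones (squares), with 95% exact intervals; the solid line is the genome and the dotted line the genome outside called steps. Whole windows run from 0.537 in Hk1 to 2.75 in Slc16a1, while outside called steps all 5 lie between 0.266 and 0.450. Leaving out called steps lowers the ratio by construction.

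The windows of the lactate genes each held a single region in the main call. With all deposited reads, which calls 0.791% of steps in the genome, the Slc16a1 window held 2. In the main call the Slc16a1 region ran over 1000 bp at chr3:104442201-104443200 and held 605 ChIP and 114 input reads. Its 5 steps held 110, 185, 195, 74 and 41 ChIP reads against 23, 19, 31, 19 and 22 input reads, and the steps that bordered it held 5 and 1 ChIP reads. ChIP was thus steep-sided, with its weight in the lower 3 steps, while input was nearly level across the region. The summit step, chr3:104442601-104442800, stood 12.6-fold over the expected 15.5 reads (adjusted p = 7.2e-136, exact Poisson test) and at 9.26 (6.31 to 14.0) over scaled input in the same step. A summit of at least 195 reads was found in 17.0% of the 27442 regions of the genome, where the median summit was 34 reads.

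The Ldha region was shorter and shallower, 400 bp at chr7:54101001-54101400 with 94 ChIP and 26 input reads. Its steps held 40 and 54 ChIP reads against 16 and 10 input reads. Input stayed raised on the upper side, with 13 and 9 reads in the next 2 steps, where ChIP had 15 and 0 reads. The summit step, the upper of the pair, stood 8.11-fold over the expected 6.66 reads (adjusted p = 4.4e-28, exact Poisson test) and at 7.95 (4.01 to 17.5) over scaled input. Its 54 reads were reached by 40.1% of the regions of the genome, so the Ldha region was near the middle of them. By read number the Slc16a1 summit was the deeper, but the ratio of ChIP to input did not differ between them beyond counting error: Ldha over Slc16a1 was 0.859 (0.380 to 2.09). In RefSeq gene order (GRCm38.p6) Ldha is followed by Ldhc, the lactate dehydrogenase of the testis, and Slc16a1 lies between Lrig2 and Tafa3.

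The Rest window held the most ChIP reads of the 5, but its deepest regions lay at its upper edge. The largest, chr5:77738401-77739200, held 514 ChIP and 104 input reads, and its summit step 267 and 28 reads, 16.9-fold over expected (adjusted p = 7.2e-218, exact Poisson test) and 14.0 (9.49 to 21.5) over scaled input. A second, chr5:77739601-77739800, held 105 and 26 reads, and the steps between them 17 and 13 ChIP reads against 10 and 29 input reads, so ChIP was low in both of them while input was high in the second. The centres of these summits lay 0.9 and 0.3 kb from the end of the window. In RefSeq gene order (GRCm38.p6) Rest is followed by Noa1, a mitochondrial GTPase, and Polr2b, a subunit of RNA polymerase II, and to which of these genes the edge regions are nearest was not determined. The upper 1.6 kb of the window held 666 of its 1019 ChIP reads and 179 of its 636 input reads. Without them, as given above, the ratio of the Rest window no longer differed from 1 beyond its interval (1.14).

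Inside the Rest window, away from that edge, were 2 regions of different shape. The region chr5:77694201-77695600 was the widest of the 13, with 180 ChIP and 58 input reads over 1400 bp. Its 7 steps held 15, 24, 27, 37, 24, 22 and 31 ChIP reads against 5, 7, 5, 11, 8, 11 and 11 input reads. No step dominated this plateau, and the summit of 37 reads was 6.48-fold over expected (adjusted p = 5.2e-16, exact Poisson test) and 4.95 (2.47 to 10.8) over scaled input. The region chr5:77710801-77711000 was a single step with 68 ChIP and 18 input reads, 13.5-fold over expected (adjusted p = 4.3e-49, exact Poisson test) and 5.56 (3.27 to 9.93) over scaled input. Summits at least as deep were found in 46.9% of the regions of the genome for the plateau and in 37.3% for the single step.

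The Pdgfra window had 3 regions within 4 kb, of which 1 was far deeper than the others. At chr5:75552201-75552600 there were 92 ChIP and 13 input reads, and the 2 steps held 41 and 51 ChIP reads against 4 and 9 input reads. The bordering steps held 1 and 2 ChIP reads. Because input around it was low, this summit had the highest fold over the expected count of all 13 regions, 22.1 over 2.31 reads (adjusted p = 7.1e-47, exact Poisson test), a fold reached by 10.9% of the regions of the genome. By depth, the measure used for the other windows, its 51 reads were reached by 40.9% of those regions. Over scaled input in the same step this summit was 8.34 (4.07 to 19.3), close to the Ldha and Slc16a1 summits. The other regions were single steps on its lower side with 18 ChIP and 10 input reads at chr5:75549201-75549400, a ratio of 2.65 (1.16 to 6.42), and with 10 and 8 reads at chr5:75551001-75551200, a ratio of 1.84 (0.654 to 5.36).

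The Hk1 window was the weakest. Its 4 regions were single steps with 16, 13, 11 and 9 ChIP reads against 10, 10, 10 and 3 input reads. The deepest, chr10:61803001-61803200, was 3.68-fold over the expected 4.35 reads (adjusted p = 0.0014, exact Poisson test) and 2.35 (1.00 to 5.80) over scaled input in the same step. The steps 200 and 400 bp below it were not called and held 8 and 12 ChIP reads against 14 and 5 input reads, so ChIP and input were raised together over 600 bp. The next regions, chr10:61861201-61861400 and chr10:61721201-61721400, had ratios of 1.91 (0.775 to 4.87) and 1.62 (0.624 to 4.25), with intervals that include 1. The region with 9 reads, chr10:61725001-61725200, had 4.42 (1.10 to 25.4). With an exact binomial test of ChIP against input in the same step, which calls 0.676% of steps in the genome, none of the 4 was called, nor with all deposited reads (0.791% of steps called) or an adjusted p of at most 1e-05 (0.846%). Other settings left calls in the window: 2 steps with a fold of at least 5 (0.770% of steps in the genome called) and 6 with input over 10 kb only (1.29%). There were 5 with scaling on background bins (1.32%) and 3 with the grid moved by 100 bp (1.00%). Without the shift 2 were called (1.04%), and without high-input steps 1 (0.293%). Summits as deep as 16 reads were found in 83.1% of the regions of the genome.

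**Figure D3:**
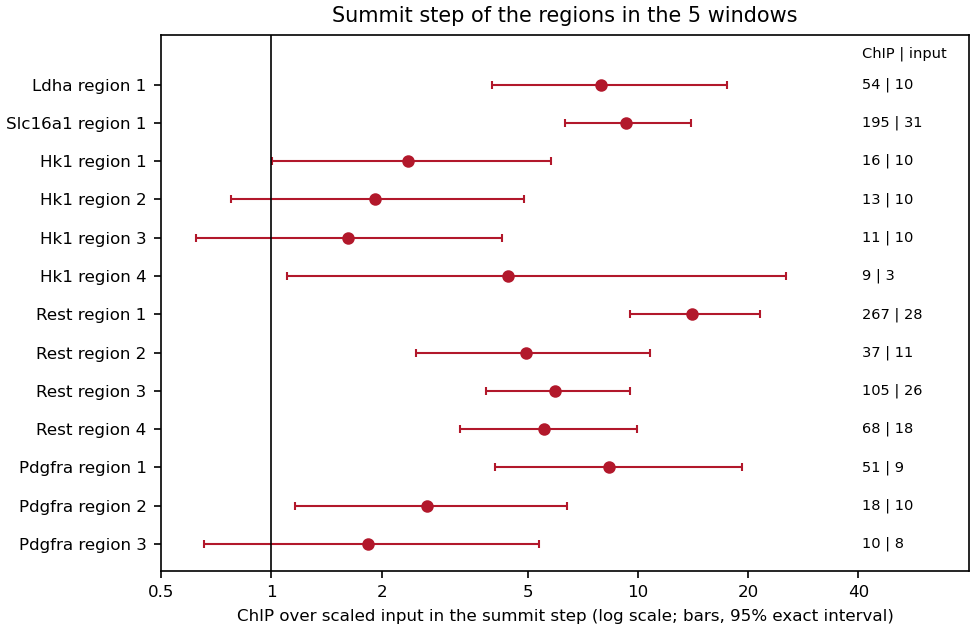
ChIP over scaled input in the summit step of each of the 13 regions, on a log scale with 95% exact intervals; regions are numbered within a window by their ChIP reads, the line marks 1, and the numbers at the right are the ChIP and input reads of the step. The value runs from 1.62 in Hk1 to 14.0 at the edge of the Rest window, and 3 intervals, 2 in Hk1 and 1 in Pdgfra, include 1.

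Among the leading summits of the windows, each its deepest ChIP step, only Hk1 differed from the others beyond counting error. The intervals are not adjusted for the number of pairs and do not cover the choice of the deepest step. In the Hk1 window the region chr10:61725001-61725200 had a higher ratio than that step, 4.42 (1.10 to 25.4). The order of the ratios was Rest (14.0), Slc16a1 (9.26), Pdgfra (8.34), Ldha (7.95) and Hk1 (2.35), and Hk1 was the lower in each of its 4 pairs. The intervals of the quotients ran from 0.0647 to 0.459 for Hk1 over Rest and from 0.0856 to 0.938 for Hk1 over Pdgfra, while Ldha over Hk1 was 3.32 (1.04 to 10.8) and Slc16a1 over Hk1 3.90 (1.45 to 10.1). The other 6 pairs had intervals that include 1 and are wide, for example 0.314 to 2.85 for Ldha over Pdgfra, so differences of that size could not be told at this depth. The order above Hk1 changed with the setting, the deepest step being chosen anew each time. Pdgfra passed Slc16a1 with all deposited reads (15.7 against 9.66) and with the grid moved by 100 bp (13.7 against 12.9). Without the shift Slc16a1 passed Rest (12.0 against 10.3). Input was raised at the summits as well. All 13 summit steps held more input reads than the genome mean of 0.974 per step, and 10 of them held at least 10 times that mean. How much of the ChIP signal follows raised input was not tested, beyond the ratios within the same step given above.

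The strands of the reads are given as a description. They are not independent of the calls, since reads were moved 110 bp inward along their strand before counting, which favours summits with an offset near 220 bp. In a precipitated fragment the plus strand 5 prime ends lie on one side of the bound site and the minus strand ends on the other, and over the genome the distance that best matched the strands was 220 bp in ChIP and 205 bp in input. Within 500 bp of the summit centre, the median minus strand end of ChIP reads lay 220 bp above the median plus strand end at Ldha (55 minus and 54 plus reads), 188 bp at Slc16a1 (289 and 295) and 223 bp at Pdgfra (54 and 42). At the Rest edge summit it was 198 bp (255 and 273) and at the single Rest step 251.5 bp (40 and 43), whereas at the Rest plateau it was 79.0 bp (68 and 68), with strands intermingled. At the second Rest edge region it was -187 bp (149 and 67), where the 500 bp on its lower side take in reads of the larger edge region. Input reads at the same places gave 170 bp at Ldha, 111.5 bp at Slc16a1, 171.5 bp at Pdgfra, -12 bp at the Rest edge, 162 bp at the single Rest step and -93.5 bp at the plateau, from 8 to 58 reads per strand. At the deepest Hk1 step the offset was 201.5 bp in ChIP and 227 bp in input, from 16 to 18 reads per strand. The other Hk1 regions had ChIP offsets of 206.5, 64.5 and 197 bp and the other Pdgfra regions 237.5 and 243 bp, from 4 to 18 reads per strand.

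**Figure D4:**
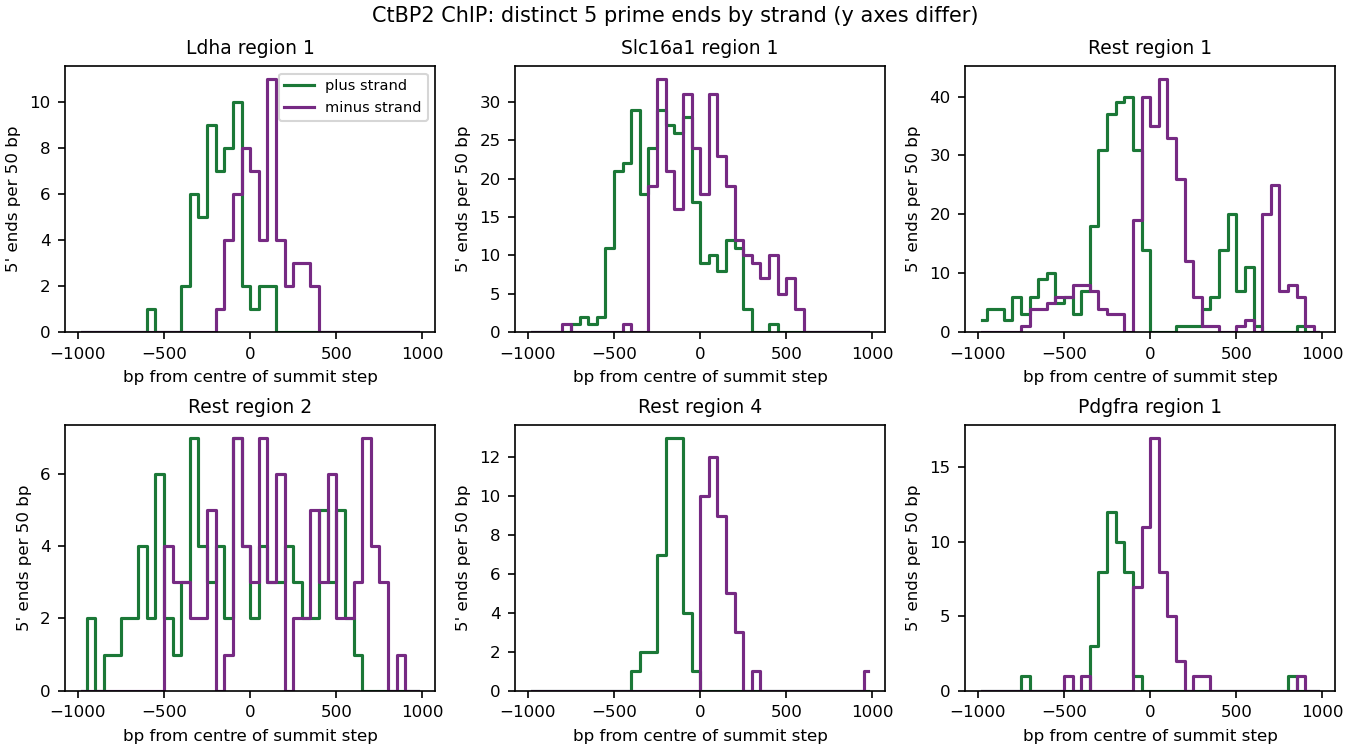
Distinct ChIP 5 prime ends per 50 bp on the plus strand (green) and the minus strand (purple) against the distance in bp from the centre of the summit step, for 6 regions, with y axes that differ. Plus strand ends precede minus strand ends in separate humps at Ldha, Pdgfra, the Rest edge (region 1) and the single Rest step (region 4), whereas the strands overlap over the wider Slc16a1 region and the Rest plateau (region 2).

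Repeated reads were unevenly spread over these places. ChIP reads were deposited 1.69 times per position in the Ldha window, 2.47 in Slc16a1, 1.59 in Hk1, 2.67 in Rest and 1.99 in Pdgfra, below the 4.12 of the whole library, while input windows lay between 1.13 and 1.16. Among the deepest summits of each window, repeats were most frequent in the 2 with most reads, with 3.35 ChIP reads per position at the Rest edge and 2.82 at Slc16a1, followed by 2.04 at Pdgfra, 1.78 at Ldha and 1.63 at Hk1. The other Rest regions had 3.03 at the second edge region, 2.25 at the single step and 1.95 at the plateau. A step of 200 bp offers 400 positions over its strands, of which the Rest edge summit filled 66.8% and the Slc16a1 summit 48.8%, against 13.5% at Ldha, 12.8% at Pdgfra and 4.0% at Hk1. Distinct reads at the deepest summits were thus closer to their upper limit. Counted with all deposited reads, the summits held 895 ChIP and 33 input reads at the Rest edge, 550 and 34 at Slc16a1, 104 and 10 at Pdgfra, 96 and 12 at Ldha and 26 and 11 at Hk1, and the order of depth was that of distinct reads except that Pdgfra came before Ldha.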

How the data were processed

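Per the labels' protocols, formaldehyde-fixed MIN6 chromatin was sheared by sonication and precipitated with anti-CtBP2, and sequenced from a kit-made DNA library. The deposited files hold aligned reads, 1 line each, with positions of mm9 in bp. The deposited name column, read as a count, is 1 on every line, so sums are raw read counts. The deposited score column is 0 throughout, so reads carry no mapping quality. BWA, SAMtools 0.1.19 and bedtools 2.17.0 are named, per the submitters' processing notes. The placing of reads that match several sites is not given in the sources used.

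Software was NumPy 2.4.6, SciPy 1.17.1 and pandas 2.3.3 under Python 3.11.15. On 21 nuclear chromosomes 1 read per 5 prime end and strand was kept and moved 110 bp toward the fragment centre, and counts were made in 200 bp steps. Ratios have 95% exact conditional binomial intervals, which cover counting error only, since amplified reads without molecular identifiers are not independent molecules. The input factor is 0.679. The fixed rule was to describe all 5 members, count every region and give values for the 3 regions of each window with the most ChIP reads. The fourth regions of the Rest and Hk1 windows are given as well, chosen after their values were seen. The plan also held a list of other disallowed genes, which needed an mm9 annotation and was not run. The call was tried on simulated data with flat input at the depth of these libraries, where 161240 steps held reads and were tested. Of 50 steps planted at each size, the call of ChIP above expected found 0 when the fold was 5 and 18 when it was 10. It found 46 when the fold was 20 and 50 when it was 40. The members, motifs and lists were chosen with earlier results of these data known. Figures were drawn with matplotlib 3.10.9.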

Additional observations from a re-analysis of the deposited data

How the results depend on the processing

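No paired analysis was possible because the ChIP and the input were single libraries. Of 68 values under other settings, 46 stayed within 1.5 times the main count or inside the counting interval of the main ratio. The 27 called steps in the windows became 16 with the exact binomial test in the same step and 7 when steps whose input reached 10 times its mean over the genome were left out, which removed every call at Ldha and Slc16a1 and left 19439 called steps in the genome (0.293%), against 67179. The 13 regions became 8 with the binomial test, 7 with an adjusted p of 1e-05 or with input of the same step in the expected count (0.806% of steps called), and 3 without high-input steps. Scaling on background bins, where ChIP held 0.218 reads per input read, multiplies every ratio alike. Window ratios became 8.57 for Slc16a1, 7.35 for Rest, 2.95 for Pdgfra, 2.48 for Ldha and 1.67 for Hk1, and summit ratios 43.7 for Rest, 28.9 for Slc16a1, 26.0 for Pdgfra, 24.8 for Ldha and 7.34 for Hk1. Low ChIP counts define these bins, so these are high values, and whether a window lies above or below 1 depends on the scaling while the order does not. With all deposited reads the window ratios were 2.37 for Slc16a1, 0.668 for Pdgfra, 0.486 for Ldha and 0.299 for Hk1. The Rest ratio of 1.14 without the upper 1.6 kb, an alternative chosen after seeing the data, has an interval that includes 1 and still ranks second of the 5. In the simulation with flat input 0 of 50 steps at 5-fold and 18 of 50 at 10-fold over the genome mean were found. Its background was set at the ChIP mean of the whole genome, called steps included. A smaller share of its steps was enriched than the 1.00% called in the genome, which makes its adjusted p stricter. It therefore sets no detection limit for the windows, where a step 3.68-fold over its local expected count was called in Hk1. Weak occupancy could still have been missed.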

Other observations

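The 100 kb on each side of the windows held further CtBP2 signal, some of it deeper than that inside. Below the Ldha window, the deepest step, chr7:54051401-54051600, held 199 ChIP and 30 input reads, a ratio of 9.76 (6.63 to 14.9), and above it chr7:54175201-54175400 held 293 and 21 reads, a ratio of 20.5 (13.2 to 33.7). Below the Hk1 window, chr10:61693801-61694000 held 311 and 27 reads, a ratio of 17.0 (11.4 to 26.1), and above it chr10:61949401-61949600 held 168 and 25, a ratio of 9.89 (6.47 to 15.7). The weak Hk1 window thus lay between deep steps. A flank without a called step is common, since 53.6% of all 100 kb tiles of the genome held at least 1. The lower flank of the Slc16a1 window held 0 called steps and the upper flank 2. The deeper of those, chr3:104556001-104556200, had 34 ChIP reads and 1 input read, a ratio of 50.04 (8.39 to 2034). Above the Pdgfra window 0 steps were called over 100 kb and none held more than 3 ChIP reads, whereas below it chr5:75440401-75440600 held 227 and 26 reads, a ratio of 12.8 (8.54 to 20.1). Around the Rest window, chr5:77628601-77628800 on the lower side held 12 and 8 reads, a ratio of 2.21 (0.830 to 6.23), and chr5:77836801-77837000 on the upper side 228 and 31, a ratio of 10.8 (7.42 to 16.3). The called steps nearest to a window lay 3 kb below Ldha and 4.2 kb below Hk1. These flanks were chosen after the values of the windows were seen.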
